A study of Danio rerio with 6 samples.

Results

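The 6 pools of a zebrafish exposure experiment fell into 2 sets of 3 by the transcript of mpeg1.1, the macrophage-expressed gene that encodes perforin-2, a pore-forming protein. The sets were chosen by the measured mpeg1.1 level, not by the labels. A pool was called macrophage-poor when mpeg1.1 stood under 1 CPM (counts per 1000000 gene counts) and macrophage-rich when it stood over 2, and all 6 of the 6 pools fell on 1 side or the other. The poor set was DMSO replicate 1 and PCB-11 replicates 1 and 2. The rich set was DMSO replicates 2 and 3 and PCB-11 replicate 3. The exposure labels therefore crossed the split, and each set held pools of both exposures. By replicate number, both pools numbered 1 were poor, both numbered 3 were rich, and those numbered 2 fell on opposite sides. A difference by replicate number therefore cannot be told apart from the split for numbers 1 and 3.

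Every pool held 18 to 20 whole eleutheroembryos of strain AB, the hatched stage still nourished by yolk, homogenised together at 96 h post fertilization (hpf). Embryos were freed of the chorion at 24 hpf and kept from then in glass vials of 5, with DMSO at 0.05% v/v in both groups. The 3 control pools had the DMSO vehicle alone, and the 3 exposed pools had 4500 µg/L PCB-11 (3,3'-dichlorobiphenyl, a polychlorinated biphenyl with few chlorines) in the same vehicle. No transgene or mutation was named for any group, and no label ties a pool to a clutch or spawning day. The p-values below therefore reflect only how far these 6 pools scattered, and some of that scatter may be technical.

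Macrophages are phagocytes that engulf microbes and dying cells, and in the zebrafish embryo the first of them arise from myeloid precursors on the yolk before blood stem cells form. Their development depends on the PU.1-type transcription factors encoded by spi1a and spi1b, on irf8, which favours macrophage over neutrophil fate, and on the receptor for colony-stimulating factor 1, encoded by csf1ra. Yellow pigment cells (xanthophores) also need csf1ra in zebrafish, so this gene is not specific to macrophages. In RNA from whole animals, fewer cells of a type and less RNA per cell cannot be told apart.

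The mpeg1.1 level that set the split was far from both limits. Plain CPM was 0.112 in DMSO replicate 1, 0.0538 in PCB-11 replicate 1 and 0.382 in PCB-11 replicate 2, from 2, 1 and 6 counts. It was 9.41 in DMSO replicate 2, 5.59 in DMSO replicate 3 and 10.99 in PCB-11 replicate 3, from 177, 110 and 225 counts. The pools nearest to the limits were thus PCB-11 replicate 2 on the poor side and DMSO replicate 3 on the rich side, and no pool lay between 1 and 2 CPM. Summed over the sets there were 512 counts against 9, a ratio of 52.3 with a 95% interval of 27.3 to 115 that covers counting error only. These values chose the sets, so they and every other gene's difference between the sets are given as a description, with no test.

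Gene counts ranged from 15705712 in PCB-11 replicate 2 to 20479751 in PCB-11 replicate 3, and 12960 of the 14791 listed genes were deep enough to be compared. Principal component 1 (43.9% of the variance) put PCB-11 replicate 2 far out at 36.9. The poor and rich sets did not overlap on that component (-3.56 to 36.9 against -16.4 to -11.01) and overlapped on each of the next 4. On the second component (26.9%), PCB-11 replicate 3 (-27.2) and DMSO replicate 1 (18.5) lay at the ends. Replicates 1, 2 and 3 stood in falling order in DMSO (18.5, 8.77 and -2.77) and in PCB-11 (8.45, -5.72 and -27.2). Each DMSO pool stood above the PCB-11 pool of its number. The order on that component thus followed both the exposure and the replicate number, and its cause was not tested. Of the 86 genes described below as higher in the rich set, 61 kept that call when PCB-11 replicate 3 was left out. The number was 79 on omitting DMSO replicate 1 and 78 on omitting PCB-11 replicate 2.

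**Figure D1:**
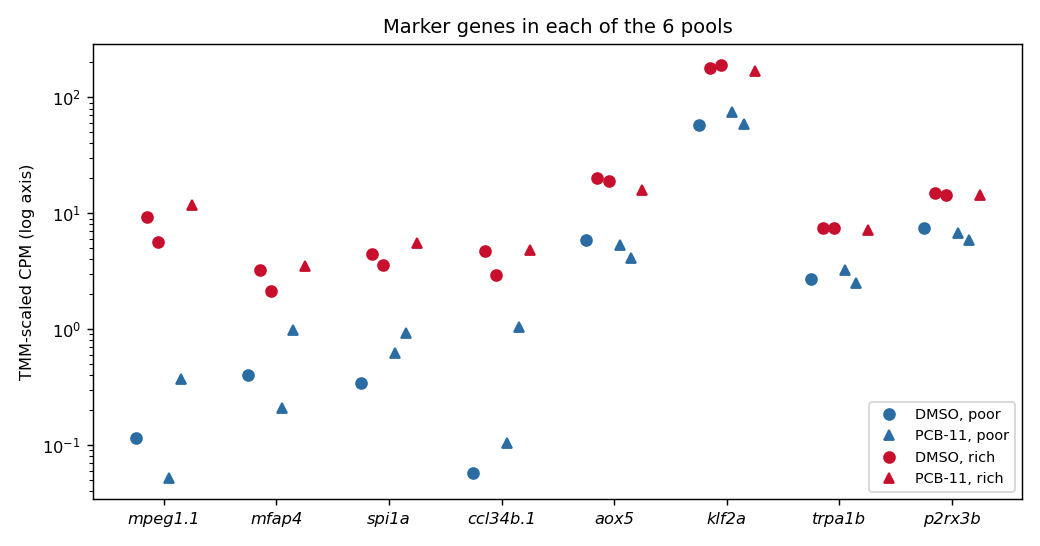
TMM-scaled CPM (log axis) of 8 genes in each of the 6 pools, 1 point per pool, with circles for DMSO, triangles for PCB-11, blue for the poor and red for the rich set. In each of the 8 genes all 3 rich pools lie above all 3 poor pools, from mpeg1.1 (0.0516 to 0.368 against 5.605 to 11.9) to p2rx3b (5.83 to 7.45 against 14.3 to 14.8).

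From here on, levels are CPM after trimmed-mean (TMM) scaling. Differences are log2 fold changes, rich minus poor, from a fit with exposure as a covariate. The ± is the standard error (SE) implied by the F value of the fit to the 6 pools. Its variance is drawn toward that of other genes, so it can understate the scatter of a noisy gene. A gene is called apart when the sets differed at least 2-fold and no poor pool overlapped a rich pool. By that rule 86 genes were higher in the rich pools (0.664% of 12960) and 6 were lower (0.0463%). Without the minimum of 2-fold, 1328 genes did not overlap and were higher (10.2%) and 1267 did not overlap and were lower (9.78%), so the side was nearly even among small differences and uneven among large ones. These shares are the background for the list counts below, and a count near them says nothing about its list. The lists were chosen with earlier results of these data known, and they hold the marker genes plotted above. A count above these shares is therefore a description and no support. The median over all genes was -0.00, with the 5th percentile at -0.39 and the 95th at 0.45.

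Among the transcription factors of the macrophage lineage, spi1a had 0.344, 0.620 and 0.921 CPM in the poor pools (DMSO replicate 1, then PCB-11 replicates 1 and 2). It had 4.48, 3.57 and 5.53 CPM in the rich pools (DMSO replicates 2 and 3, then PCB-11 replicate 3). Every rich pool was above every poor pool, by a log2 fold change of 3.06 ± 0.28. Its paralog spi1b, the main PU.1 gene of embryonic myeloid cells, ranged from 0.671 to 0.921 CPM in the poor and from 2.45 to 3.00 in the rich pools (1.72 ± 0.26). The factor gene irf8 ranged from 0.798 to 1.32 and from 2.24 to 3.53 CPM (1.43 ± 0.29).

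Among receptors, csf1ra had 0.917, 0.826 and 0.430 CPM in the poor pools and 4.74, 3.46 and 2.69 in the rich pools, in the same order. Its difference was 2.102 ± 0.30, and PCB-11 replicate 3, the highest rich pool for mpeg1.1, was the lowest rich pool for csf1ra. The genes for its ligands did not part the pools, with csf1a at 0.10 ± 0.17 and csf1b at 0.27 ± 0.17. The chemokine receptor gene cxcr3.2, which guides macrophage migration in zebrafish larvae, ranged from 0.458 to 1.11 CPM in the poor and from 2.497 to 4.21 in the rich pools (2.39 ± 0.29). For havcr1, which in mammals encodes a receptor of the TIM family that binds dying cells, the ranges were 0.172 to 0.430 and 2.09 to 4.37 CPM (3.71 ± 0.34, from 15 counts against 181). This gene was deep enough to be compared only through the rich pools and so had to differ.

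Some genes of secreted and lysosomal products were among the largest differences. The chemokine gene ccl34b.1 had 0.0573, 0.103 and 1.04 CPM in the poor pools and 4.69, 2.96 and 4.85 in the rich pools. PCB-11 replicate 2 thus held most of the 20 poor counts of this gene, against 240 rich counts (3.66 ± 0.57), and without that pool the difference was 5.63. The fibrinogen-domain gene mfap4, used as a macrophage marker in zebrafish, had 0.401, 0.207 and 0.983 CPM against 3.23, 2.14 and 3.53 (2.66 ± 0.43, and 3.32 without PCB-11 replicate 2). Its near copy zgc:173915, which RefSeq names mfap4.2, differed by 4.05 ± 0.32. This copy was deep enough to be compared only through the rich pools and so had to differ. Reads of the mfap4 pair, of the cathepsin S genes ctssb.1 (2.33 ± 0.29) and ctssb.2 (1.16 ± 0.23) and of the mpeg1 pair could have been exchanged between copies by the authors' counting, so single values within these pairs are uncertain. The galectin-binding protein gene lgals3bpb differed by 2.84 ± 0.26 and the granulin gene grna, a growth factor precursor found in lysosomes, by 2.30 ± 0.22. Of 22 compared complement and lysosome genes, grna was the only 1 apart, and the list's median was 0.16. Without the minimum of 2-fold, 2 did not overlap, both higher. Over all compared genes the shares were 0.664% and 10.2%.

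Of 35 listed macrophage genes, 28 were in the tables and 23 could be compared. Of these, 12 were apart and 13 did not overlap, all higher in the rich pools, and the list's median was 1.22. Over all compared genes the shares were 0.664% and 10.2%. The 12, and the median, include mpeg1.1, which chose the sets. Of the 23, 2 (mpeg1.1 and havcr1) passed the filter on low counts only through the rich pools and so had to differ. The list's summed level ranged from 698 to 1059 CPM in the poor and from 1081 to 1522 in the rich pools, and members with many counts carried most of that sum. Of those, apoeb, an apolipoprotein gene also active in skin and yolk tissue, stood at 0.55 ± 0.22 with overlap (0.03 on omitting PCB-11 replicate 3, 1.07 on omitting DMSO replicate 1), and the lysosomal enzyme gene hexb at 0.02 ± 0.10. The label macrophage-poor therefore describes the lineage factors, the receptors and the marker genes, not the whole list.

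Members whose sets overlapped included the copy mpeg1.2 (0.43 ± 0.16, from 8.31 to 9.58 CPM in the poor and from 8.25 to 14.7 in the rich pools). The complement gene c1qa (-0.02 ± 0.30), the granulin genes grn1 (-0.20 ± 0.15) and grn2 (-0.10 ± 0.62) and the amino acid transporter gene slc7a7 (0.38 ± 0.14) also overlapped between the sets. The cytokine gene il1b (0.46 ± 0.37) did not overlap and was under 2-fold. The metabolic gene irg1, induced in activated macrophages, had 21 counts in the poor and 62 in the rich pools (1.22 ± 0.73) and also overlapped, with 2.19 CPM in DMSO replicate 2 and 0.184 to 0.671 in the other 5. Its difference was 0.38 when DMSO replicate 1 was left out and 2.17 when PCB-11 replicate 3 was. Below the filter, c1qb had 1, 2 and 0 counts in the poor pools and 10, 5 and 11 in the rich, and tnfa had 0 to 2 counts in any pool.

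Genes shared by all white blood cells were mostly higher in the rich pools too. Of 23 compared pan-leukocyte genes, 18 did not overlap and were higher in the rich pools and 7 were apart, with a median of 0.62. Over all compared genes the shares were 10.2% and 0.664%. Of the 23, 1 (gmfg) passed the filter only through the rich pools and so had to differ. The actin-bundling gene lcp1 (L-plastin) had 12.3, 10.9 and 8.05 CPM in the poor pools and 25.7, 18.8 and 26.9 in the rich pools (1.18 ± 0.19). The actin regulator gene coro1a had 9.17, 9.50 and 7.06 CPM against 20.0, 16.1 and 19.9 (1.12 ± 0.16). PCB-11 replicate 2 was the lowest poor pool in both genes, and DMSO replicate 3 was the lowest rich pool in both.

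The Fc receptor adaptor gene fcer1gl (1.67 ± 0.34), the antigen presentation gene cd74b (1.40 ± 0.39), cybb, the catalytic subunit of the phagocyte oxidase (1.33 ± 0.23), gmfg (1.18 ± 0.37) and plek (1.05 ± 0.28) were also apart. Further oxidase subunit genes differed less, with ncf4 at 0.48 ± 0.22, ncf1 at 0.43 ± 0.20 and cyba at 0.27 ± 0.12. The cytoskeletal and signalling genes wasb (0.96 ± 0.26), ptpn6 (0.72 ± 0.14), lyn (0.71 ± 0.18), hcls1 (0.62 ± 0.14), arpc1b (0.46 ± 0.14) and rac2 (0.45 ± 0.13) followed. The remaining members were tyrobp (0.43 ± 0.35), the chemokine receptor gene cxcr4b (0.34 ± 0.15), arhgdig (0.20 ± 0.10), cotl1 (0.19 ± 0.12), the kinase gene syk (-0.07 ± 0.16) and samsn1a (-0.13 ± 0.13). Several of these values moved with 1 pool. When PCB-11 replicate 3 was left out they were 0.97 for fcer1gl, 0.77 for cd74b, 0.70 for gmfg, 0.52 for wasb and -0.02 for tyrobp, and when DMSO replicate 1 was left out they were 2.32 for fcer1gl and 2.02 for cd74b.

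Markers of the other blood lineages were present in every pool and differed less between the sets. Of 14 neutrophil genes 6 did not overlap, all higher in the rich pools, against 10.2% of all compared genes. Their median was 0.30 and 0 were apart, against 0.664% of all compared genes apart and higher. The myeloperoxidase gene mpx had 15.8, 12.8 and 5.71 CPM in the poor and 26.1, 21.2 and 23.3 in the rich pools (0.95 ± 0.26, and 0.59 without PCB-11 replicate 3), without overlap and under 2-fold. The lysozyme gene lyz ranged from 20.5 to 29.2 and from 30.8 to 44.9 CPM (0.49 ± 0.18, and 0.09 without PCB-11 replicate 3). In the DMSO pools the neutrophil median was 0.09, in the PCB-11 pools 0.59, and without PCB-11 replicate 3 it was 0.07.

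Of 13 lymphoid and thymus genes, 1 was apart (median 0.17), against 0.664% of all compared genes apart and higher. It was ccr9a, a chemokine receptor gene of T cell precursors in mammals, with 0.974 to 1.24 CPM in the poor and 2.14 to 4.74 in the rich pools (1.81 ± 0.28). The recombination gene rag1 had 172, 173 and 104 counts in the poor and 186, 181 and 202 in the rich pools, and the T cell kinase gene lck 7 to 26 counts in any pool. Genes of blood progenitors and red cells (18 compared) had a median of 0.05, with 0 apart.

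**Figure D2:**
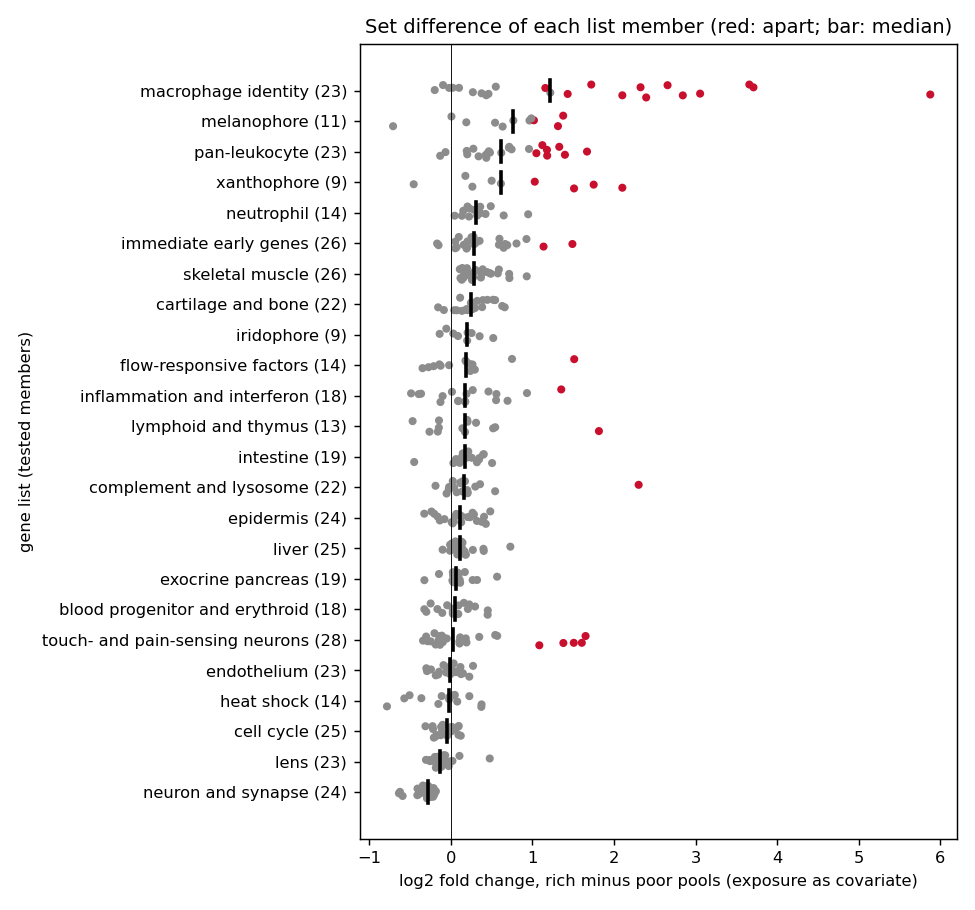
Log2 fold change, rich minus poor pools, of each compared member of 24 gene lists, 1 point per gene, red where the gene was apart; black bars are list medians. The macrophage list reaches 5.88 (mpeg1.1, which chose the sets) and has a median of 1.22. Of the 24 lists, 14 hold no gene that was apart. Over all compared genes 0.664% were apart and higher, so an absence from a list says nothing about it.

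Pigment cell genes also parted the pools. Xanthophores make pteridine and carotenoid pigments, and melanophores make melanin, and both come from the neural crest, unlike macrophages. The xanthophore gene aox5, an aldehyde oxidase gene used as a lineage marker, had 5.85, 5.27 and 4.11 CPM in the poor pools and 20.2, 19.01 and 16.0 in the rich pools. The sets were well separated and each was narrow, with a difference of 1.75 ± 0.14 that stayed between 1.68 and 1.83 when any 1 pool was left out. The transporter gene slc22a7a had 12.1, 10.2 and 9.46 CPM against 32.7, 28.2 and 31.6 (1.51 ± 0.13). The gene gch2, for the first enzyme of pteridine synthesis in these cells, had 19.3, 17.7 and 25.2 CPM against 46.9, 41.1 and 39.1 (1.03 ± 0.15).

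Of 9 compared xanthophore genes, 4 were apart (csf1ra, which the macrophage list also holds, among them) and 7 did not overlap, with a median of 0.61. Of 11 melanophore genes, 3 were apart and 8 did not overlap, with a median of 0.77, and all 8 of these were higher in the rich pools. Over all compared genes, 0.664% were apart and higher, and 10.2% did not overlap and were higher. The lowest member was pmelb, a paralog of pmela, chosen after its values were seen, at -0.71 ± 0.30 with overlap. The gene tyr, which encodes tyrosinase, the first enzyme of melanin synthesis, had 6.99, 5.22 and 4.05 CPM in the poor and 20.9, 13.6 and 11.7 in the rich pools (1.31 ± 0.20). DMSO replicate 2 was highest for tyr, and PCB-11 replicate 3 was the lowest of the rich pools. The melanosome transport gene mlpha differed by 1.38 ± 0.17, the melanosome matrix gene pmela by 1.02 ± 0.15 and the ion exchanger gene slc24a5 by 0.99 ± 0.27.

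Further pigment cell genes were chosen after their values were seen. The factor genes pax7a (-0.46 ± 0.21) and pax7b (0.18 ± 0.13), the melanophore receptor gene kita (0.19 ± 0.23) and the channel gene trpm1b (0.01 ± 0.13) were all under 1.5-fold apart. The melanophore master factor gene mitfa stood at 0.63 ± 0.29 and the melanin enzyme gene dct at 0.54 ± 0.12. The reflecting pigment cells (iridophores) had 9 compared genes, with 0 apart (against 0.664% of all compared genes apart and higher) and a median of 0.20. Of the 9, 2 did not overlap and were higher, against 10.2% of all compared genes. The iridophore marker pnp4a, a purine enzyme gene, was also chosen after its values were seen. It had 54.4 to 70.1 CPM in the poor and 63.2 to 76.9 in the rich pools.

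Some channel genes of sensory neurons were also apart, those of the TRP family and of the P2X purine receptors. In zebrafish larvae, trpa1b serves the response to chemical irritants, trpv1 the response to noxious heat, and p2rx3a and p2rx3b encode ATP-gated channels of touch- and pain-sensing neurons. The transcript of trpa1b had 2.69, 3.25 and 2.52 CPM in the poor pools and 7.5, 7.44 and 7.16 in the rich pools. Its rich pools were nearly equal and all above the poor pools, with a difference of 1.38 ± 0.18. The gene p2rx3b had 7.45, 6.77 and 5.83 CPM against 14.8, 14.3 and 14.5 (1.08 ± 0.14).

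Among the others of these families, trpv1 stood at 1.15, 1.03 and 0.921 CPM against 4.27, 3.21 and 3.00 (1.65 ± 0.25). The gene p2rx3a had 1.83, 1.55 and 2.21 CPM against 5.26, 5.66 and 5.79 (1.60 ± 0.21), and trpa1a 1.60, 1.39 and 0.614 against 3.13, 3.36 and 4.003 (1.51 ± 0.31). These 5 genes had a median of 1.51 and a range of 1.08 to 1.65, and none overlapped. The other 23 compared genes of the touch and pain list, among them factors and neuropeptides of the same neurons, had a median of -0.10. Their range was -0.34 to 0.57. Of these, 2 did not overlap and were higher and 1 was lower, against 10.2% and 9.78% of all compared genes. The division of the list into TRP and P2X genes and other genes was made after their values were seen. The others include the sodium channel gene scn8aa, at -0.30 ± 0.16 with overlap. The sensory neuron factor genes isl2b (-0.15 ± 0.12) and prdm14 (0.18 ± 0.30) overlapped between the sets.

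The gene klf2a encodes a transcription factor that in blood vessels responds to flow. It had 57.4, 74.8 and 58.9 CPM in the poor pools and 179.7, 192 and 169 in the rich pools. Each set was narrow against the gap between them, and the difference was 1.51 ± 0.13. Its paralog klf2b did not follow, at -0.28 ± 0.15, and in the list of flow-responsive factors (14 compared, median 0.18) klf2a was the only gene apart. Of 23 endothelial genes 0 were apart, against 0.664% of all compared genes apart and higher, and their median was -0.01. The vessel markers kdrl (-0.00 ± 0.15) and cdh5 (-0.03 ± 0.23) overlapped. These vessel markers, klf2b, isl2b, prdm14 and scn8aa were chosen after their values were seen.

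**Figure D3:**
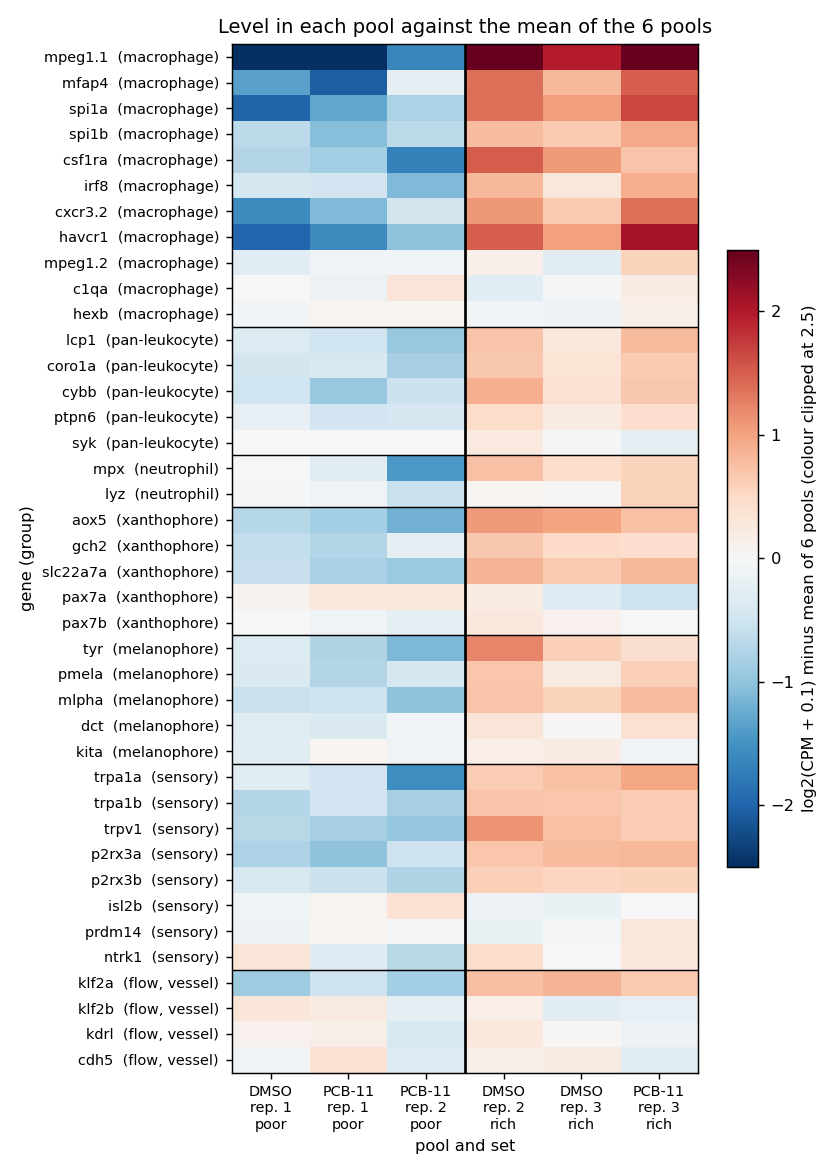
Level of 40 genes in each pool as log2(CPM + 0.1) minus the mean of the 6 pools (red above, blue below, colour clipped at 2.5), with the poor pools left of the black line and the rich pools right of it. Lineage factors, receptors, several pigment cell genes and the TRP and P2X channels change colour at the line, while mpeg1.2, c1qa, hexb, pax7a, isl2b, klf2b, kdrl and cdh5 do not.

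Rapid response genes were partly higher in the rich pools. Of 26 immediate early genes, 2 were apart and 10 did not overlap, all higher, with a median of 0.29. Over all compared genes, 0.664% were apart and higher and 10.2% did not overlap and were higher. The feedback inhibitor gene socs3a had 19.4, 19.3 and 26.1 CPM in the poor and 59.6, 27.3 and 48.8 in the rich pools (1.14 ± 0.26), so DMSO replicate 3 stood close to PCB-11 replicate 2. The factor gene fosb, which passed the filter only through the rich pools and so had to differ, stood at 1.49 ± 0.36 and nr4a1 at 0.93 ± 0.09. Among 18 inflammation and interferon genes (median 0.17, lowest -0.49), 1 was apart, the lysozyme-type gene lygl1 (1.35 ± 0.22). Of the 18, 5 did not overlap and were higher and 1 was lower, against 10.2% and 9.78% of all compared genes. The gene nfkbiaa, which encodes an inhibitor of NF-kB, had 26.0 to 28.3 CPM in the poor and 44.6 to 55.9 in the rich pools (0.93 ± 0.11).

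Among the genes apart outside the lists, zgc:91968 (mreg among its RefSeq synonyms) had 5.90, 5.37 and 6.02 CPM in the poor and 25.4, 22.8 and 29.1 in the rich pools (2.204 ± 0.14). The gene zgc:162150, which RefSeq names plin6, had 3.21, 2.17 and 3.13 CPM against 14.5, 12.2 and 17.8 (2.44 ± 0.21), and sprb had 0.917, 0.620 and 0.614 against 1.98, 3.92 and 3.16 (2.04 ± 0.35). The connexin gene cx32.2, chosen after its values were seen, had 0 counts in each poor pool and 30, 23 and 27 in the rich pools. It passed the filter only through the rich pools, as did 16 of the 86 genes in all. Of the 86 genes higher in the rich pools, 36 stood in at least 1 list and 50 in none. Of the 36, 19 were macrophage or pan-leukocyte genes, 7 pigment cell genes and 5 TRP or P2X channel genes. The gene csf1ra is counted among both the 19 and the 7.

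The genes lower in the rich pools were few and mostly of low count. Of the 6, zgc:171534, which had the largest difference, had 6.19, 9.40 and 10.9 CPM in the poor pools and 3.23, 5.45 and 0.685 in the rich pools (-1.71 ± 0.54). PCB-11 replicate 3 set its size, since the difference was -0.51 without that pool, and it was -3.88 without DMSO replicate 1. The collagen chaperone gene serpinh1b of the heat shock list had 253, 216 and 179 CPM against 147, 104 and 134 (-0.78 ± 0.16), and the co-chaperone gene dnajb1b stood at -0.57 ± 0.15, both without overlap and under 2-fold. Of 24 neuron and synapse genes, 9 did not overlap and were lower in the rich pools (median -0.28), against 9.78% of all compared genes. The RNA-binding protein gene elavl3 had 82.5, 85.4 and 64.9 CPM against 77.0, 56.6 and 38.7 (-0.63 ± 0.19, and -0.30 without PCB-11 replicate 3), with overlap, and leaving out PCB-11 replicate 3 gave a list median of -0.11, leaving out DMSO replicate 1 one of -0.49.

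Organ gene lists held no gene that was apart, though some members differed without overlap, and several lists gave other medians in DMSO than in PCB-11. Skeletal muscle genes (26 compared, 0 apart, median 0.28) stood at -0.09 in the DMSO pools and 0.65 in the PCB-11 pools, and the median was -0.09 without PCB-11 replicate 3. Exocrine pancreas genes (19 compared, 0 apart) stood at -0.48 in DMSO and 0.63 in PCB-11, and liver genes (25 compared, 0 apart) at -0.22 and 0.44. The highest summed levels of these 3 lists were those of PCB-11 replicate 3 and DMSO replicate 1, 1 pool of each set. Their part in the difference between the sets was not tested. Intestine genes (19 compared, 0 apart, median 0.17) and cartilage and bone genes (22 compared, 0 apart, median 0.25) were lowest in PCB-11 replicate 2 by summed level. Without the minimum of 2-fold, 6 skeletal muscle genes and 7 cartilage and bone genes did not overlap, all higher in the rich pools. Intestine genes without overlap were 2 higher and 1 lower, and the pancreas and liver lists held 0. Over all compared genes, 10.2% were higher without overlap and 9.78% lower, and 0.664% were apart and higher.

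Within each exposure the 86 genes lie above 0 by their choice, since no poor pool overlapped a rich one, and only the sizes are described. Within the DMSO pools 54 of the 86 genes differed at least 2-fold (2 rich pools minus 1 poor), within the PCB-11 pools 78 did (1 rich minus 2 poor), and 47 did in both. These within-exposure differences are of mean log2 CPM with a prior count of 2, which draws low counts toward 0. For aox5 they were 1.72 and 1.75, for klf2a 1.69 and 1.34, for trpa1b 1.44 and 1.29 and for p2rx3b 0.96 and 1.19. The macrophage median was 1.00 in DMSO and 1.48 in PCB-11, the xanthophore median 0.60 and 0.70 and the melanophore median 0.83 and 0.79. Low pools were not the same pool throughout: of the 86 genes, DMSO replicate 1 was the lowest pool of its set in 21, PCB-11 replicate 1 in 26 and PCB-11 replicate 2 in 39. Among the rich pools PCB-11 replicate 3 was highest in 54 and DMSO replicate 3 lowest in 55.

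**Figure D4:**
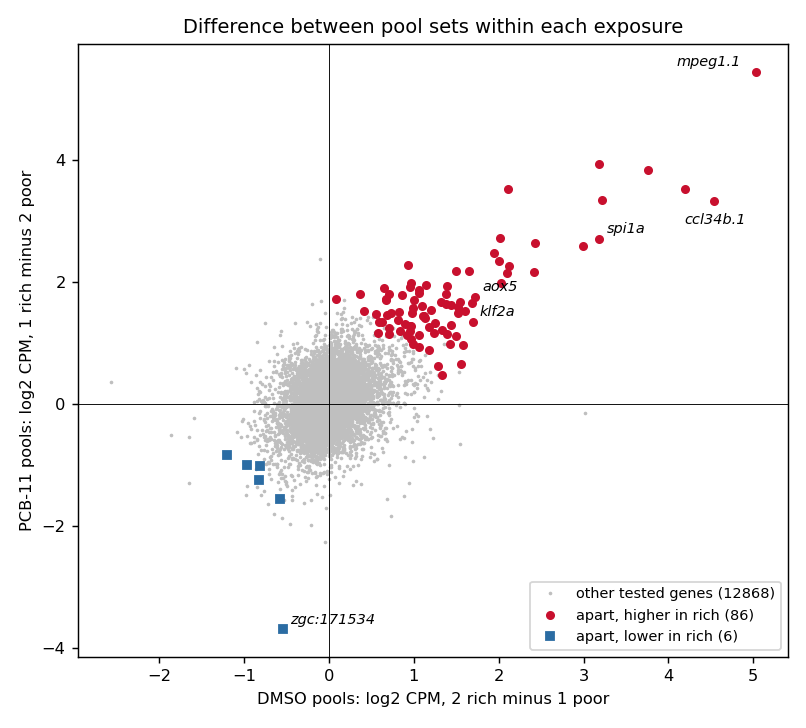
Difference between rich and poor pools within DMSO (horizontal axis, 2 rich minus 1 poor) and within PCB-11 (vertical axis, 1 rich minus 2 poor), both in log2 CPM, 1 point per compared gene. The 86 genes higher in the rich pools (red circles) are above 0 on both axes and the 6 lower ones (blue squares) below 0 on both, as their choice for not overlapping requires. The gene zgc:171534 lies at -0.55 and -3.69.

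Whether the split differed by exposure was tested with an interaction term in edgeR's quasi-likelihood fit. It called 0 genes (0%) after Benjamini-Hochberg adjustment, with 777 (6.00%) below 0.05 before adjustment. The same term had 38 calls by DESeq2 and 0 by limma-voom. With 1 DMSO poor pool and 1 PCB-11 rich pool, each of these cells rests on a single pool, so a missed threshold does not show that the split was alike in both exposures.

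The level of macrophage genes was compared between the exposures. The mean log2 CPM over the 23 macrophage genes, mpeg1.1 among them, was 2.00 ± 0.87 (SD, n = 3) in DMSO and 1.75 ± 0.88 (SD, n = 3) in PCB-11. The groups differed by -0.25 (exact permutation test over the 20 splits, two-sided, p = 1). With 3 pools against 3 this test cannot go below 0.1. PCB-11 replicate 3 had the highest mean (2.76) and DMSO replicate 1 the lowest (1.03). Each exposure held poor and rich pools by the choice of the split. Genes that follow the split could therefore not part the exposures, and no conclusion is drawn from this test.

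With the split as a covariate, the exposure itself was tested across all genes. EdgeR's quasi-likelihood test called 7 of 12960 genes (0.054%), and without the covariate it called 6. The aryl hydrocarbon receptor target cyp1a rose in PCB-11 (log2 fold change 1.36 ± 0.13, adjusted p = 0.0161), as did cyp2k6, pth1a, nppc, zp3a.2 and si:ch211-119o8.7, while plac8.1 fell. Their differences between the sets ran from -0.32 (pth1a) to 0.43 (zp3a.2), and none was apart. Each set held pools of both exposures, so a gene with a large exposure difference could hardly avoid overlap between the sets. Leaving out DMSO replicate 1 or PCB-11 replicate 3 left 0 genes called, with fewer pools in the test, while the log2 fold changes on leaving out each pool were 1.13 to 1.59 for cyp1a, 2.09 to 2.60 for pth1a and -1.02 to -0.89 for plac8.1.

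None of the 92 genes apart was called for exposure by edgeR, and 10 of them (10.9%) had an unadjusted p under 0.05, against 12% of all compared genes. The choice of genes without overlap works against those with a large exposure difference, so no conclusion is drawn from these counts. Among the 8 genes of the plot of levels by pool, leaving out mpeg1.1, which set the split, the exposure difference was largest for ccl34b.1 (0.60 ± 0.51, adjusted p = 0.657 in edgeR) and spi1a (0.58 ± 0.26, adjusted p = 0.415). The exposure difference of klf2a was 0.04 ± 0.13 and that of trpa1b 0.01 ± 0.18.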

How the data were processed

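Poly(A) RNA from whole eleutheroembryos was sequenced as directional single-end libraries, per the labels' protocols. Each pool has 1 table of raw read counts by gene symbol, as the authors deposited it. Build danRer7 and the tool Cufflinks appear per the submitters' processing notes. How reads were aligned, counted and annotated, and whether by strand, is not given in the sources used here, so overlapping, antisense and near-identical genes are uncertain, and levels were not compared between genes.

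Reads outside annotated genes (31.4% to 39.1% of a pool's counts, with 95% Wilson intervals at most 0.0375 percentage points wide, for counting error only) and ambiguous reads (0.379% to 0.429%) stayed out of totals and tests. The share outside genes was 31.4% in DMSO replicate 1, 35.0% in PCB-11 replicate 1 and 39.1% in PCB-11 replicate 2, the poor pools. It was 31.8% to 33.4% in the rich pools. Its part in the difference between the sets was not tested. Genes were kept by edgeR's default filter, and 1831 were not compared. EdgeR 4.0.16 with limma 3.58.1 in R 4.3.3 fitted robust quasi-likelihood models with exposure and the mpeg1.1 set as terms, scaled by TMM. The common biological coefficient of variation was 11.4%. The fit was tested on simulated data with 200 changed genes. The exposure and interaction terms were tested two-sided with Benjamini-Hochberg adjustment at 0.05; the set term was only described, because it was defined from these counts.

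The sets, members and 24 gene lists were chosen with earlier results of these data known. Of 600 list entries 511 matched a symbol, 22 of them through a synonym in RefSeq (GRCz12tu, used for names alone), and 472 were compared. Genes named are the 8 markers, up to 12 genes per direction with the largest difference among genes apart with mean log2 CPM of at least 1, the genes called for exposure, the 4 largest differences of each list, and all compared macrophage and pan-leukocyte genes except 1 that is not reported here. Others are said to be chosen after their values were seen.

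No 2 pools agreed within counting error. Deviations of same-numbered pools correlated at 0.256, -0.147 and 0.367 for replicates 1, 2 and 3. The pools numbered 1 were each other's best match, as were those numbered 3, and those numbered 2 were not. Pools numbered 1 were both poor, those numbered 3 both rich, and those numbered 2 on opposite sides. Pairing by replicate number therefore cannot be told apart from the split by these values. Alternatives were other scalings and filters, DESeq2 1.42.0, limma-voom, other fold limits, the replicate block, each exposure alone and leaving out each pool; 2 were added after seeing the data. The plots used matplotlib 3.10.9.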

Additional observations from a re-analysis of the deposited data

Results flagged for a closer look

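In 6 named genes every DMSO comparison of rich with poor pools had 1 sign and every PCB-11 comparison the other. In the DMSO pools the difference was 0.32 for crybb3. For the others it was small, between -0.11 (zp3a.2, at 0.255 to 0.287 CPM) and 0.04 (nos1), so their sign there carries little weight. The interaction, as the PCB-11 difference minus the DMSO difference on the log2 scale, was -1.37 ± 0.86 for the lens crystallin gene crybb3, -0.81 ± 0.35 for the neuronal nitric oxide synthase gene nos1 and 0.73 ± 0.71 for the immune adaptor gene tyrobp. It was 0.70 ± 0.95 for the egg coat gene zp3a.2, 0.29 ± 0.36 for the ligand gene csf1a and 0.13 ± 0.19 for the lysosomal gene hexb. None of the 6 passed the interaction test in edgeR (adjusted p from 0.818 for nos1 to 0.925 for hexb, with Benjamini-Hochberg adjustment), and each rests on 1 DMSO poor pool and 1 PCB-11 rich pool. No group held the 4 samples needed to look for single outlying pools.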

How the results depend on the processing

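The number of genes higher in the rich pools, 86, was 265 at 1.5-fold, 31 at 3-fold and 191 within the PCB-11 pools alone, and 84 to 174 on leaving out each pool, with 174 without DMSO replicate 1. Of the 86, 61 remained apart without PCB-11 replicate 3 and 75 to 84 on leaving out any other pool. The 6 lower genes became 35 with no filter, 3 with a stricter filter, 70 at 1.5-fold, 1 at 3-fold, 12 within DMSO and 104 within PCB-11. Leaving out each pool gave 10 to 52 of them (47 without DMSO replicate 1, 52 without DMSO replicate 2, 10 without PCB-11 replicate 1, and 18 without any other pool), and 30 were lower without PCB-11 replicates 2 and 3 together, a setting added after seeing the data. Pairing by replicate number cannot be told apart from the split for numbers 1 and 3. With the replicate block, 203 genes were higher, 23 lower and 17 called for exposure. In that fit the set difference rests on the pools numbered 2 alone, DMSO replicate 2 against PCB-11 replicate 2. Both pools numbered 1 were poor and both numbered 3 were rich, so only the exposure term is drawn from them.

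The 7 exposure calls became 11 with library size alone, 12 with no filter and 69 in DESeq2, 61 without PCB-11 replicates 2 and 3 together, and 0 to 12 on leaving out each pool (0 without DMSO replicate 1 or PCB-11 replicate 3, 12 without DMSO replicate 3 or PCB-11 replicate 2). The 0 interaction calls became 38 in DESeq2 and 1 to 1035 on leaving out a pool (1035 without PCB-11 replicate 1, 82 without PCB-11 replicate 2). The cause was not tested. The interaction could not be estimated without DMSO replicate 1 or PCB-11 replicate 3, and with the block it leaves no residual degrees of freedom. The macrophage difference between exposures ran from -0.754 to 0.0917 on leaving out each pool, above 0 on leaving out DMSO replicate 2 (0.0917) or PCB-11 replicate 1 (0.0648). Over the 144 named differences and all settings, 2281 recomputed values moved less than the spread between pools and 396 moved more. Library size alone shifted the median of all genes by -0.06. Genes under about 1 CPM rest on few counts, and 16 of the 86 were below the filter's level in every poor pool.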

Other observations

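The genes here were chosen after their values were seen, mostly for being high in the rich pools, and 10.2% of all compared genes were likewise higher without overlap. They support no statement about a group. The sugar transporter genes slc2a15b and slc2a11b, both active in xanthophores of fish, had 8.16 to 9.89 and 7.39 to 8.66 CPM in the poor and 16.1 to 18.8 and 14.4 to 16.7 in the rich pools (log2 differences of 1.02 ± 0.13 and 1.00 ± 0.14). The lipid droplet gene bscl2l had 3.19 to 4.99 CPM against 10.04 to 13.0 (1.58 ± 0.20), and the melanin enzyme gene tyrp1b 63.2 to 76.6 against 125 to 147 (0.96 ± 0.12).

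The gene klf9, induced by the glucocorticoid receptor in zebrafish larvae, had 29.0, 31.2 and 39.1 CPM in the poor pools and 66.6, 91.2 and 69.0 in the rich pools, in the order used above (1.204 ± 0.17). Smaller differences without overlap were those of the gluconeogenic genes g6pca.2 (0.82 ± 0.13) and pck1 (0.59 ± 0.15), of the factor gene cebpd (0.79 ± 0.11), of the cortisol-inactivating enzyme gene hsd11b2 (0.63 ± 0.12), of tsc22d3 (0.62 ± 0.12) and of the kinase gene sgk1 (0.50 ± 0.12). The chaperone gene fkbp5 (0.72 ± 0.26) overlapped between the sets, and the receptor gene nr3c1 stood at 0.09 ± 0.10.

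The chemoattractant receptor gene cmklr1 had 0, 0.103 and 0.184 CPM in the poor pools and 2.03, 1.73 and 2.74 in the rich pools. The gene zgc:172352, which RefSeq names nckap1l, had 2.79 to 3.95 CPM against 7.34 to 10.6 (1.52 ± 0.21), and alox5ap, a gene of leukotriene synthesis, 0.246 to 0.465 against 1.16 to 1.61 (1.68 ± 0.35). Of these, cmklr1 and alox5ap passed the filter only through the rich pools and so had to differ.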
